A study of Mus musculus with 4 samples.

Results

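This report concerns 45 genes of the extracellular matrix, its integrin receptors and the scar that forms after brain injury, in mouse cortex after a permanent stroke. They were listed by name, and a spot belonged to a gene when the RefSeq accession printed in the scanner file mapped to its symbol. All 45 were found, of 20832 named genes on the array, through 58 probes, and the brightest probe stood for a gene. No probe of these genes was lost to the filter on dim spots, and no spot of the 45 probes was dropped as an outlier. Total RNA came from the cortex on the side of the lesion, 24 h after the left middle cerebral artery was cauterised and cut. The mice were 8 weeks old and C57BL/6, and they were either wild type or labelled Ndrg2KO, that is, knockout for Ndrg2, a gene of astrocytes. Both groups had the occlusion, so no uninjured cortex is compared here. The labels do not say how the allele was made, which cells lose the gene, whether animals were pooled or whether each sample was a separate animal. The p-values hence rest on these 4 pairs and no other samples, and their scatter could be partly technical. In limma the variance of a gene is also drawn toward that of all features. For a gene that scatters more than most, this gives a smaller p than its own 4 values would.

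Each of 4 two-colour Agilent arrays carried a knockout-labelled sample in Cy3 and the wild-type sample of the same number in Cy5. All values below are log2 of knockout-labelled over wild type, so a negative value means less signal in the knockout-labelled cortex. Every array had the same dye orientation, so a dye effect of a single probe and the genotype cannot be told apart. No spot was saturated, and the software called 73.6 to 74.9% of spots well above background in Cy3 and 76.7 to 79.0% in Cy5. Ndrg2 itself stood at -0.22, -0.22, -0.18 and -0.11 on arrays 1 to 4, a small fall (mean -0.18 ± 0.05, SD, n = 4; limma, adjusted p = 0.0248) with the probe still brighter than 97.7% of features. Its call was lost in 6 of 17 alternative settings, among them the fits without replicate 1, 2 or 3. With the scanner software's own ratios Ndrg2 stood at -0.04 (limma, adjusted p = 0.529). The labels do not give the deleted part, and the position of the probe relative to it was not examined. Whether Ndrg2 was lost can hence not be told from this probe, and the samples are called knockout-labelled. In the tissue check, all 7 markers of cortical excitatory neurons were above the filter, and their summed intensity ranged from 93691 to 101740 in the knockout-labelled and from 98804 to 108440 in the wild-type samples. Of the 7, Neurod2 was higher at 0.165 and Tbr1 lower at -0.21 (limma, adjusted p = 0.0344 and 0.0438), and 5 did not pass. Tbr1 made up 30 to 36% of that sum. In whole tissue, fewer cells of a type and less RNA per cell cannot be told apart.

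The matrix of healthy cortex is poor in fibres. It consists mostly of hyaluronan and lectican proteoglycans around neurons, and of basement membranes of laminin, collagen IV, nidogen and perlecan around vessels and under the meninges. Fibrillar collagens, lumican and decorin are made mainly by fibroblasts of the meninges and of large vessels. After ischaemia, reactive glia, vessel cells, fibroblasts and entering macrophages deposit fibronectin, matricellular proteins and later collagen, under the influence of TGF-beta, which is stored in the matrix in a latent form and can be released by thrombospondin 1 and by integrins. Integrins are receptors of paired alpha and beta chains that bind these proteins and link them to actin.

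Of the 45 genes, 10 were lower and 1 was higher in the knockout-labelled cortex, and 34 did not pass (limma, adjusted p under 0.05 over all 24565 features). Those lower were the matricellular genes Thbs1 and Sparcl1, the collagen gene Col6a1, the fibre genes Lum, Fbn1 and Dcn, the basement membrane gene Nid1, the cytokine gene Tgfb1, the integrin gene Itga5 and the fibroblast enzyme gene Aldh1a2, by 0.21 to 0.94. Tgfb2, the other TGF-beta ligand measured, was the one that was higher, by 0.17. The share past the threshold was 24.4%, close to the 21.3% of all features that passed, while the share lower was 22.2% against 12.7% of all features, and the share higher was 2.22% against 8.63%. The genes were chosen with earlier results of these data known, so these shares may partly reflect that choice, and the list was not tested. The median of the 45 was -0.13, against -0.02 over all features, and 38 of the 45 means lay below 0. Only Fbn1, Itga5 and Col6a1 passed in each of the 17 alternatives run. Without replicate 1, and likewise without replicate 2, these were the 3 that passed.

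The arrays did not contribute equally. The median of the 45 genes was -0.25, -0.22, -0.06 and -0.05 on arrays 1 to 4, where the median of all features was -0.02 on each. The 34 genes that did not pass ranged from -0.61 to 0.09, and the most negative of them, Spp1 and Tgfbi, were well below 0 on arrays 1 and 2 and above 0 on array 4. All 45 probes were well above background on all 4 arrays in both channels, except the probe of Lox, which was so on 3 of 4 arrays in the knockout channel.

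**Figure D1:**
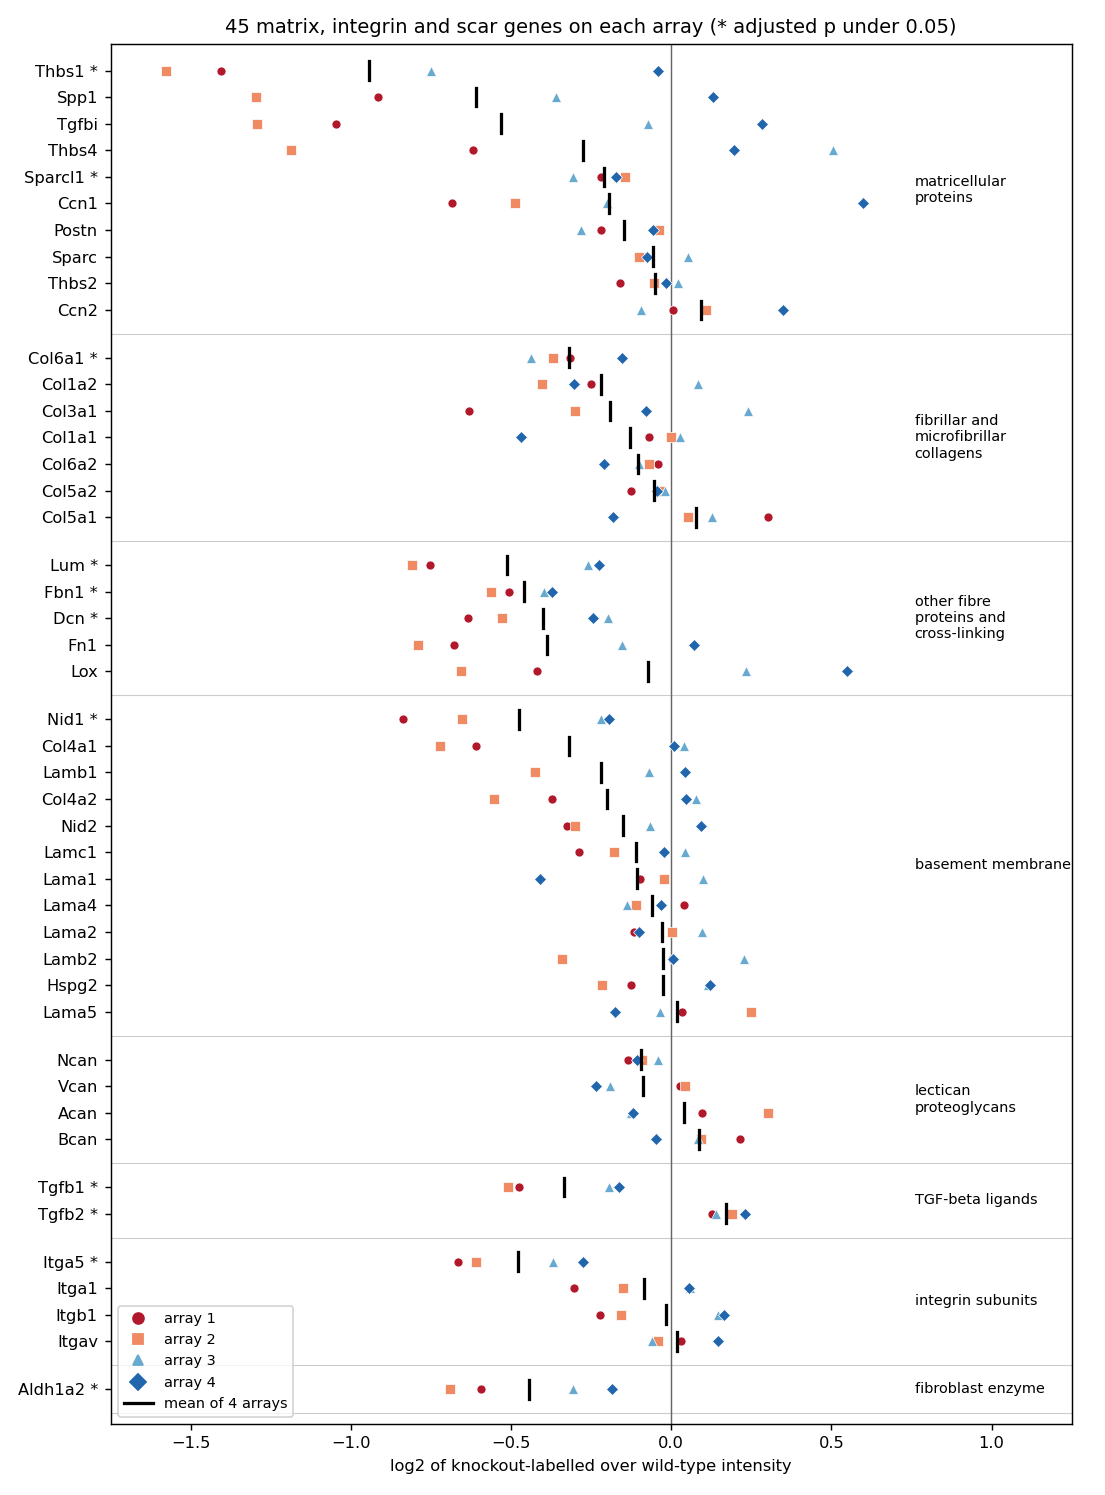
Log2 of knockout-labelled over wild-type intensity (horizontal axis) for each of the 45 genes, grouped by role; coloured symbols are the 4 arrays, black bars the mean, and asterisks mark an adjusted p under 0.05. Thbs1 spans -1.58 to -0.04, whereas the 4 values of Fbn1 lie between -0.56 and -0.37 and those of Tgfb2 between 0.13 and 0.23.

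Promoter sequence was available for 32 of the 45 genes in the RefSeq table of the build GRCm38.p6, and the 250 bases before the annotated start were searched on both strands. Shown are Fbn1, Itga5 and Col6a1, whose calls held in every alternative, and the ligand genes Tgfb1 and Tgfb2, which went opposite ways. Each reads 5′ to 3′ on the gene's strand and ends at the base before the start. Capitals mark matches to any of 5 motifs or their reverse complements. The SP1 motif was searched as GGGCGG. The letters ACGTG stand for the core of the hypoxia response element. TEAD factors were represented by GGAATG and AP-1 by its motif TGANTCA. The box bound by the TATA-binding protein was searched as TATAAA. The windows are Fbn1 at chr2:125506439-125506688 on the minus strand, Itga5 at chr15:103366792-103367041 on the minus strand, Col6a1 at chr10:76726045-76726294 on the minus strand, Tgfb1 at chr7:25686752-25687001 on the plus strand and Tgfb2 at chr1:186705990-186706239 on the minus strand.
Fbn1: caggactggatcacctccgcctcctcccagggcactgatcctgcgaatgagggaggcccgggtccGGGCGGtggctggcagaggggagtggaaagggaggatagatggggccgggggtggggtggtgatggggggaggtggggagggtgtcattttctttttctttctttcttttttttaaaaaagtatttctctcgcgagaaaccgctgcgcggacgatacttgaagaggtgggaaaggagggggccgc
Itga5: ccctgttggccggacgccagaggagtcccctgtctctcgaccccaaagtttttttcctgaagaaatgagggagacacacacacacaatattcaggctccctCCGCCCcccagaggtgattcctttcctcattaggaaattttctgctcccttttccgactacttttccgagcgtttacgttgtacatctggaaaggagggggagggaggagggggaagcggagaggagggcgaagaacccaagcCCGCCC
Col6a1: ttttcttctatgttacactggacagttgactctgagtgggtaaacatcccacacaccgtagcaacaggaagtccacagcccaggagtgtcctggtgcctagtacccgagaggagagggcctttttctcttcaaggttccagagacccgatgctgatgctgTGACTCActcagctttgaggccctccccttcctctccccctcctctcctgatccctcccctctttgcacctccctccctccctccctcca
Tgfb1: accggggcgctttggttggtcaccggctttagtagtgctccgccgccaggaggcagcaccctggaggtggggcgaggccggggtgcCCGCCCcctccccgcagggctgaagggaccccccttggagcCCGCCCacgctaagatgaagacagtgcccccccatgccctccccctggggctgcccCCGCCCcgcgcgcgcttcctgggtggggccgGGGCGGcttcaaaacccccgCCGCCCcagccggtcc
Tgfb2: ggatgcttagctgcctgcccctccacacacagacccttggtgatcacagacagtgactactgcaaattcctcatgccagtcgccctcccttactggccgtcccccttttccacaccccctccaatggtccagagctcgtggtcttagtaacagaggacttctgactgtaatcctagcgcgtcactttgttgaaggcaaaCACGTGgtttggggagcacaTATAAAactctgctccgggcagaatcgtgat

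Tgfb1 and Tgfb2 differed in these letters. The window of Tgfb1 held 5 matches to GGGCGG, no TATAAA and a GC content of 75.2%, and that of Tgfb2 held no GGGCGG, 1 TATAAA whose first base lay 31 bases before the start, and 53.6% GC. Tgfb2 also held CACGTG, which matches ACGTG on both strands. Col6a1 alone of the 32 held TGANTCA, against 6.87% of all 27025 promoters of that length. GGGCGG was in 19 of the 32 (59.4%, against 32.9% of all) and in 4 of the 7 promoters of genes that passed, and the windows of the 32 had a median GC content of 62% against 52% of all. GGAATG was in 7 of the 32 (21.9%, against 12.6%), Ccn1 among them, ACGTG in 5 (15.6%, against 16.6%) and TATAAA in 6 (18.8%, against 13%). A match is a description of letters, and shows no binding.

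Matricellular proteins sit in the matrix and act on cells without building fibres. Of the 10 measured, 2 were lower (20%, against 12.7% of all features), 8 did not pass and none was higher. Their median was -0.20. Thbs1 encodes thrombospondin 1, an inhibitor of vessel growth and an activator of latent TGF-beta. Its ratios were -1.41, -1.58, -0.75 and -0.04 on arrays 1 to 4, a mean of -0.94 ± 0.70 (SD, n = 4; limma, adjusted p = 0.0284), or 1.92-fold lower. Its normalized intensity was 226, 260, 735 and 1058 in knockout-labelled samples 1 to 4 and 598, 776, 1235 and 1088 in the wild-type samples. Knockout-labelled samples 1 and 2 were far below every other sample, and on array 4 the pair was nearly equal, so the groups overlapped. The call was lost in 8 of the 17 alternatives, with adjusted p up to 0.212, and among these were the fits without replicate 1 (-0.79, limma, adjusted p = 0.104), replicate 2 (-0.73, adjusted p = 0.0981) and replicate 3 (-1.01, adjusted p = 0.0645).

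Sparcl1, or hevin, is an astrocyte protein that promotes synapse formation. It was at -0.22, -0.14, -0.31 and -0.17, a mean of -0.21 ± 0.07 (limma, adjusted p = 0.0198), and its intensity ran from 130170 to 149060 in the knockout-labelled and from 154980 to 168950 in the wild-type samples, without overlap. Its probe was brighter than 99.9% of features, and the brightest 2% of features had a median of -0.14. The call was lost without replicate 1, 2 or 3 (limma, adjusted p = 0.0664, 0.0509 and 0.0682). With the scanner software's own ratios Sparcl1 stood at 0.03 (limma, adjusted p = 0.75). Of 7 astrocyte markers 3 were lower (42.9%, against 12.7% of all features). The 7 had medians of -0.23, -0.31, -0.06 and -0.31 on arrays 1 to 4. Their summed intensity was 145100 to 165680 in knockout-labelled against 190740 to 202500 in wild-type samples. Aldoc made up 60.6 to 66.6% of that sum, and without it the ranges overlapped, at 52622 to 65283 against 64029 to 68465. All 7 were above the filter, and their part in the value of Sparcl1 was not tested. Its relative Sparc, which binds collagen, lay among the same very bright features and was at -0.06 ± 0.07, with -0.10, -0.10 and -0.08 on arrays 1, 2 and 4 against 0.05 on array 3.

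Spp1, or osteopontin, is an integrin ligand made by macrophages and reactive microglia. It was at -0.91, -1.30, -0.36 and 0.13, a mean of -0.61 ± 0.63 that did not pass (limma, adjusted p = 0.0730). Its intensity was 2738, 2504, 5376 and 5574 in the knockout-labelled samples against 5163, 6148, 6898 and 5097 in wild type: the first 2 knockout-labelled samples were lowest of all 8, and the other 2 fell within the wild-type range. Tgfbi, an adhesive protein induced by TGF-beta, was at -1.05, -1.29, -0.07 and 0.28 (mean -0.53 ± 0.76; limma, adjusted p = 0.163). Its knockout-labelled samples 1 and 2 were likewise the lowest, while sample 4, at 9417, lay above the wild-type range of 6673 to 8832. Without replicate 4, Spp1 stood at -0.86 and Tgfbi at -0.80, and both passed (limma, adjusted p = 0.0215 and 0.0470). Without replicate 2 they stood at -0.38 and -0.28 and did not pass (limma, adjusted p = 0.21 and 0.462).

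Thbs4 and Ccn1 changed sign between arrays. Thbs4, a thrombospondin that astrocytes make after injury, was at -0.62, -1.19, 0.51 and 0.20 (mean -0.28 ± 0.77; limma, adjusted p = 0.457). Ccn1, a target of the mechanosensitive YAP and TEAD factors, was at -0.68, -0.49, -0.20 and 0.60 (mean -0.19 ± 0.56; adjusted p = 0.480). For these, the 95% intervals of the mean, -0.86 to 0.31 and -0.63 to 0.24, leave differences of either sign possible. Without replicate 4, Ccn1 stood at -0.46 and passed (limma, adjusted p = 0.0266), whereas without replicate 1 it stood at -0.03 (adjusted p = 0.932). Ccn2, or connective tissue growth factor, was among the 3 highest of the 45 at 0.00, 0.11, -0.09 and 0.35, with a mean of 0.09 ± 0.19 (adjusted p = 0.387). The direction of Ccn2 turned to -0.28 when arrays were centred on the median instead of by loess, a setting in which the median of all features moved to -0.18. Postn, or periostin, a product of fibroblasts, was at -0.15 ± 0.12 and Thbs2 at -0.05 ± 0.08, neither past the threshold.

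Fibre-forming collagens give tissue its tensile strength, and collagen VI forms the microfibrils that tie cells to them. Among the 7 chains of both kinds, 1 was lower (14.3%, against 12.7% of all features) and 6 did not pass. The median was -0.13. The lower one was Col6a1, at -0.31, -0.37, -0.44 and -0.15, a mean of -0.32 ± 0.12 (limma, adjusted p = 0.0108). Its intensity was 3737, 4392, 3911 and 3843 in the knockout-labelled and 4647, 5671, 5302 and 4273 in the wild-type samples, so the lower value belonged to the knockout-labelled sample on every array, although the groups overlapped. Col6a2, whose chain assembles with that of Col6a1, was at -0.10 ± 0.07 and below 0 on all 4 arrays, and did not pass (limma, adjusted p = 0.139).

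The partner chains of collagen I did not pass either. Col1a2 was at -0.25, -0.40, 0.08 and -0.30 (mean -0.22 ± 0.21; limma, adjusted p = 0.0854, but 0.0254 without replicate 3 and 0.258 without replicate 2), and Col1a1 at -0.07, 0.00, 0.03 and -0.47 (mean -0.13 ± 0.23; adjusted p = 0.302). Col3a1 was at -0.63, -0.30, 0.24 and -0.08. Of the collagen V chains, Col5a2 was at -0.06 ± 0.05 and Col5a1 at 0.08 ± 0.20, the latter with 0.30 on array 1 and -0.18 on array 4. With median centring Col5a2 turned to 0.27 and passed as higher.

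The other fibre genes held 3 of the 10 lower calls: 3 of 5 were lower (60%, against 12.7% of all features), 2 did not pass, and the median was -0.40. Of these 3, only Fbn1 kept its call in every alternative. Fbn1 encodes fibrillin 1, the backbone of microfibrils that also hold latent TGF-beta. It had the smallest p of the 45, at -0.51, -0.56, -0.40 and -0.37, a mean of -0.46 ± 0.09 (SD, n = 4; limma, adjusted p = 0.00242), or 1.38-fold lower. Intensity was 291, 319, 335 and 372 in the knockout-labelled and 414, 471, 441 and 482 in the wild-type samples, so the groups did not overlap. Over the 17 alternatives the value of Fbn1 ranged from -0.57 to -0.43.

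Lum and Dcn encode lumican and decorin, leucine-rich proteoglycans that coat collagen fibrils. Lum was at -0.75, -0.81, -0.26 and -0.22 (mean -0.51 ± 0.31; limma, adjusted p = 0.0189), with 794, 927, 1291 and 1314 in the knockout-labelled and 1339, 1623, 1544 and 1535 in the wild-type samples. The highest knockout-labelled value lay just under the lowest wild-type value. Dcn was at -0.63, -0.53, -0.20 and -0.24 (mean -0.40 ± 0.21; adjusted p = 0.0156), with intensities of 6431, 7927, 12074 and 9887 against 9976, 11437, 13837 and 11712, which overlapped. Without replicate 1 the adjusted p was 0.0711 for Lum and 0.0515 for Dcn, and without replicate 2 it was 0.0688 and 0.0657 (limma). Both genes also lost their calls with the scanner software's ratios and with no replicate block, and Lum also with plain background subtraction. Fn1, or fibronectin, was at -0.68, -0.79, -0.15 and 0.07, a mean of -0.39 ± 0.41 that did not pass (limma, adjusted p = 0.0867). Without replicate 4 Fn1 reached -0.54 and passed (limma, adjusted p = 0.0319), and without replicate 2 it stood at -0.25 (adjusted p = 0.263). Lox, the enzyme that cross-links collagen, was at -0.42, -0.66, 0.23 and 0.55, negative on arrays 1 and 2 and positive on arrays 3 and 4.

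Aldh1a2, which makes retinoic acid and marks meningeal fibroblasts, was also lower, at -0.60, -0.69, -0.31 and -0.18 (mean -0.44 ± 0.24; limma, adjusted p = 0.0148). Its intensity was 2433, 2926, 3924 and 3416 in the knockout-labelled and 3676, 4723, 4850 and 3882 in the wild-type samples, overlapping in the third knockout-labelled sample. Without replicate 1 or 2 it stood at -0.39 and -0.36 and no longer passed (limma, adjusted p = 0.0592 and 0.0544). Because Lum, Dcn, collagen I and Aldh1a2 are fibroblast genes, 11 other markers of meningeal and perivascular fibroblasts were examined. Of these, 2 were lower (Crabp2 at -0.22 and Ptgds at -0.20), 1 was higher (Cemip at 0.21) and 8 did not pass, with medians of -0.02, -0.07, 0.02 and -0.24 on arrays 1 to 4. Their summed intensity ranged from 105740 to 135020 in the knockout-labelled and from 131800 to 143980 in the wild-type samples, and all 11 were above the filter. Ptgds alone made up 91.4 to 92.8% of that sum, and the other 10 summed to 9137 to 10283 against 9944 to 11056. The 5 fibre genes above, Fn1 and Lox among them, had medians of -0.63, -0.66, -0.20 and -0.22 on arrays 1 to 4. The part of fibroblast number in the fall of Lum, Dcn and Aldh1a2 was not tested.

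Basement membranes are sheets of laminin and collagen IV joined by nidogen and perlecan, and they line the vessels of the blood-brain barrier. Of the 12 genes, 1 was lower (8.33%, against 12.7% of all features) and 11 did not pass, with a median of -0.11. Nid1, the gene of nidogen 1, was at -0.84, -0.65, -0.22 and -0.20, a mean of -0.48 ± 0.32 (limma, adjusted p = 0.0247), or 1.39-fold lower. Its intensity was 771, 962, 1437 and 1344 in the knockout-labelled and 1378, 1514, 1671 and 1539 in the wild-type samples. Both dimmer probes of Nid1 showed less, at -0.08 and -0.14, with mean log2 intensities of 6.40 and 6.67 against 10.3 for the probe used. Without replicate 1 or 2 the probe used stood at -0.36 and -0.42 and no longer passed (limma, adjusted p = 0.0710 and 0.0955). Nid2, on chromosome 14 like Ndrg2 and the only one of the 45 there, was at -0.15 ± 0.20 and did not pass.

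Neither chain of the main collagen IV trimer passed. Col4a1 was at -0.61, -0.72, 0.04 and 0.01 (mean -0.32 ± 0.40; limma, adjusted p = 0.129) and Col4a2 at -0.37, -0.55, 0.08 and 0.05 (mean -0.20 ± 0.31; adjusted p = 0.218). Both were well below 0 on arrays 1 and 2 and at or slightly above 0 on arrays 3 and 4. Among the laminin chains, Lamb1 was lowest at -0.22 ± 0.24 (adjusted p = 0.113), and Lama1, Lama2, Lama4, Lama5, Lamb2 and Lamc1 ran from -0.11 to 0.02. Hspg2, the gene of perlecan, was at -0.03 ± 0.17, with a 95% interval of -0.18 to 0.13. Of 7 endothelial markers 1 was lower, Ly6c1 at -0.39, and of 8 mural cell markers 1 was lower, Notch3 at -0.22. These shares were 14.3 and 12.5%, against 12.7% of all features. Means lay below 0 for 5 endothelial and 6 mural markers. Cldn5 of the former (mean 0.29) and Tagln and Myh11 of the latter (0.17 and 0.09) were above 0 on all 4 arrays, and did not pass. The mural markers had medians of -0.10, -0.22, -0.04 and -0.09 on arrays 1 to 4. The endothelial markers had medians of -0.32, -0.17, -0.04 and -0.02 on arrays 1 to 4, thus lowest on the same 2 arrays as collagen IV. Their summed intensity ranged from 26133 to 39673 in the knockout-labelled and from 32967 to 39882 in the wild-type samples, with all 7 above the filter. Ly6c1 made up 49.8 to 65.6% of that sum, and the part of these markers in the collagen IV values was not tested.

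The lecticans are the chondroitin sulphate proteoglycans of brain, found in perineuronal nets and in the glial scar. None of the 4 passed. Ncan, or neurocan, was at -0.13, -0.09, -0.04 and -0.11, a mean of -0.09 ± 0.04 (limma, adjusted p = 0.142), with intensities of 3151 to 3400 in the knockout-labelled and 3459 to 3621 in the wild-type samples, a small difference without overlap. Vcan, or versican, was at -0.09 ± 0.14, and Acan, or aggrecan, at 0.04 ± 0.20. Bcan, or brevican, was the third highest of the 45, after Tgfb2 and Ccn2, at 0.22, 0.09, 0.08 and -0.05 (mean 0.09 ± 0.11; adjusted p = 0.264), although its dimmer probe stood at -0.16 and median centring turned the brighter one to -0.47. The median of the 4 was 0.06 and 0.07 on arrays 1 and 2, against -0.08 and -0.11 on arrays 3 and 4. It rests on 4 genes, and Ncan was below 0 on every array. The 7 collagen chains above also had their lowest median on array 4, with -0.13, -0.07, 0.03 and -0.18 on arrays 1 to 4. An order of arrays unlike that of Lum and Dcn was hence not particular to the lecticans.

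TGF-beta drives fibroblasts and astrocytes to make matrix. The 2 ligand genes measured, whose promoters are printed above, went opposite ways. Tgfb1, the form made mainly by microglia and macrophages, was at -0.48, -0.51, -0.19 and -0.16, a mean of -0.34 ± 0.18 (limma, adjusted p = 0.0185), or 1.26-fold lower. Its intensity was 258, 246, 323 and 370 in the knockout-labelled and 358, 350, 370 and 415 in the wild-type samples, lower in the knockout-labelled sample of each array. The call was lost without replicate 1 or 2 (-0.29 and -0.28; limma, adjusted p = 0.0699 and 0.0700), and also with plain background subtraction, the scanner software's ratios, the series matrix and no replicate block, where Tgfb2 passed. Of 7 microglial markers, all above the filter, 3 were lower (42.9%, against 12.7% of all features). The 7 had medians of -0.08, -0.05, -0.10 and -0.21 on arrays 1 to 4 and summed intensities of 96399 to 108050 against 109990 to 121820. Without the brightest, Siglech, the sums were 54295 to 57253 against 60717 to 62153, and the part of these markers in the value of Tgfb1 was not tested. Tgfb2, made by neurons and astrocytes, was at 0.13, 0.19, 0.14 and 0.23, a mean of 0.17 ± 0.05 (limma, adjusted p = 0.0285), or 1.13-fold higher. Its intensity was 1448, 1496, 1504 and 1480 in the knockout-labelled and 1325, 1312, 1364 and 1262 in the wild-type samples, so the groups did not overlap. Each ligand passed in 11 of the 17 alternatives. The second probe of Tgfb2 stood at 0.00 ± 0.11, the call was lost when any of the 4 replicates was left out (limma, adjusted p = 0.0659, 0.0936, 0.0687 and 0.0978), and median centring turned the value to -0.09 (adjusted p = 0.124).

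Itga5, the fibronectin receptor chain, was the integrin gene that fell, while Itga1, Itgb1 and Itgav did not pass. Itga5 was at -0.67, -0.61, -0.37 and -0.28, a mean of -0.48 ± 0.19 (SD, n = 4; limma, adjusted p = 0.00737), or 1.39-fold lower. Its intensity was 156, 181, 233 and 239 in the knockout-labelled and 247, 276, 301 and 290 in the wild-type samples, without overlap, and it ranged from -0.67 to -0.42 over the alternatives. Itgb1, the beta chain that pairs with it, was at -0.22, -0.16, 0.15 and 0.17, a mean of -0.02 ± 0.20 (adjusted p = 0.893). Itga1, part of a collagen receptor, was at -0.08 ± 0.18, and Itgav, part of the receptors that release latent TGF-beta, at 0.02 ± 0.09 with a 95% interval of -0.10 to 0.13.

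**Figure D2:**
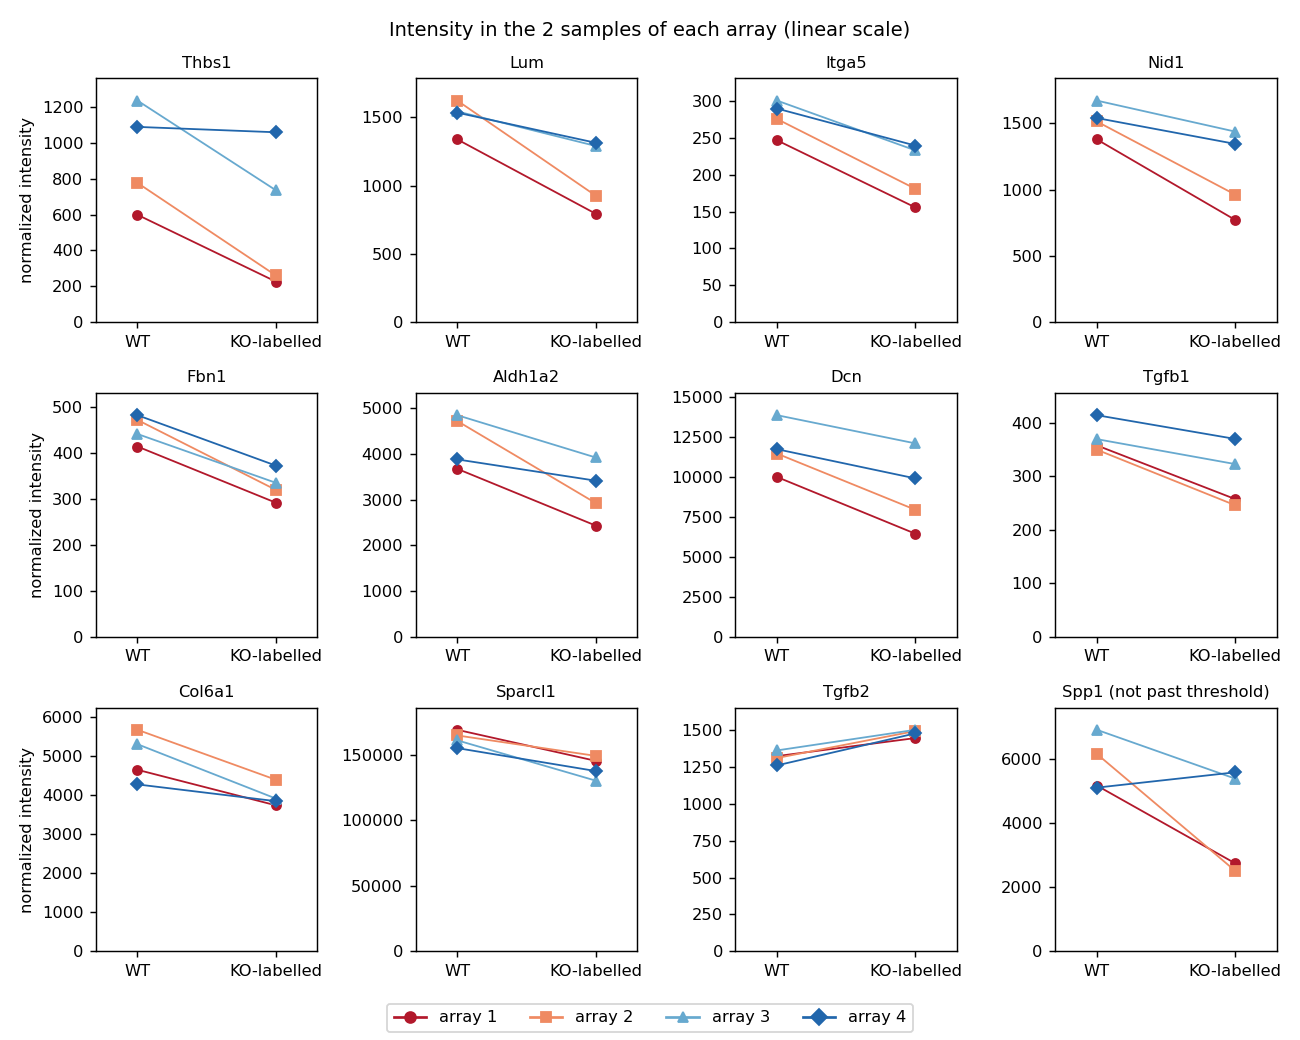
Normalized intensity on a linear scale (vertical axis) of the wild-type and the knockout-labelled sample of each array, joined by a line, for the 11 genes past the threshold and for Spp1. Fbn1, Itga5, Lum, Sparcl1 and Tgfb2 show no overlap between groups, and the knockout-labelled samples 1 and 2 are lowest for Thbs1, at 226 and 260.

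Over all 45 genes, 6 had channel intensities that did not overlap between the groups (13.3%), namely Fbn1, Itga5, Lum, Sparcl1 and Ncan lower and Tgfb2 higher. Of all features 19.7% did so, so the share among the 45 was below the background. Of the 45, 14 were below 0 on all 4 arrays (31.1%, against 25.1% of all features) and 1 was above 0 on all 4 (2.22%, against 18.6% of all features).

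The 45 genes varied more from array to array than most features, a description for which no test was made. The median SD over the 4 ratios was 0.20, against 0.10 for all features. Arrays 1 and 2 gave nearly the same ratios for the 45, with a Pearson correlation across genes of 0.92 against 0.73 across all features. Arrays 3 and 4 correlated at 0.26 across the 45, against 0.63 across all features, and array 4 at -0.14 with array 1 and -0.20 with array 2, against 0.45 and 0.41. These correlations describe genes of the same samples, which are not independent replicates, and no test was made of them.

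The spread lay more in the knockout-labelled than in the wild-type samples. The SD of the log2 intensity over the 4 samples was larger in the knockout-labelled group for 38 of the 45 genes (84.4%, against 62.2% of all features), with a median of 0.21 there and 0.11 in wild type. Among the 8 samples, knockout-labelled sample 1 had the lowest intensity for 25 of the 45 genes (55.6%, against 17.5% of all features) and knockout-labelled sample 2 for 7 (15.6%, against 11.2%). These intensities were scaled between arrays, and the values of a pair share an array, so the counts are a description.

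**Figure D3:**
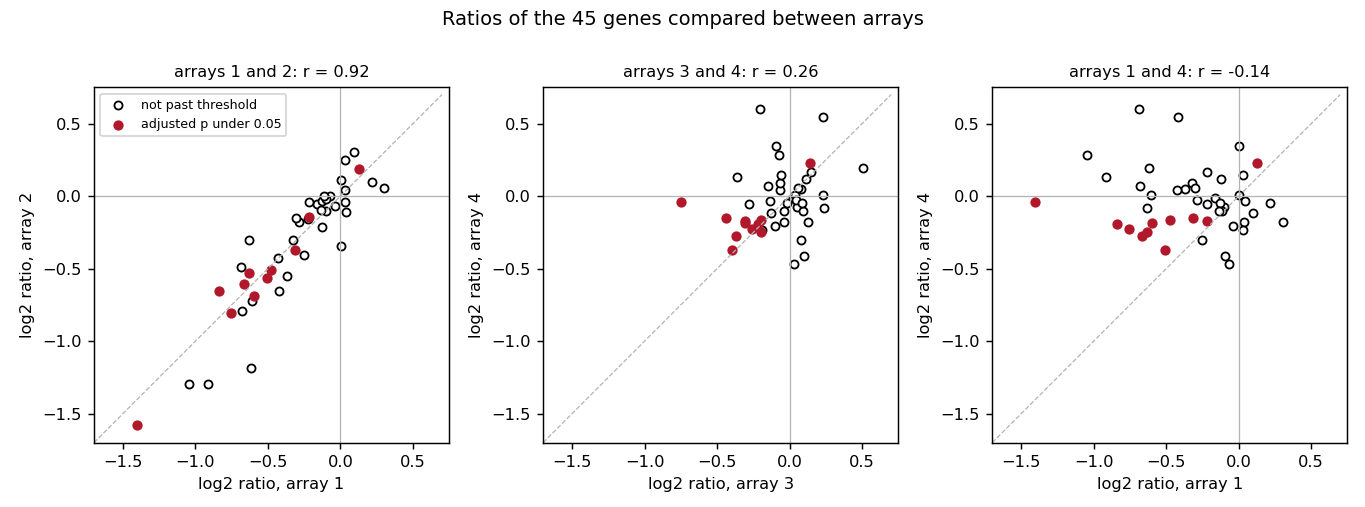
Log2 ratios of the 45 genes on array 1 against array 2, array 3 against array 4, and array 1 against array 4; red points passed the threshold, and the dashed line marks equal values. Points follow the line for arrays 1 and 2 (r = 0.92) and scatter for arrays 3 and 4 (r = 0.26) and for arrays 1 and 4 (r = -0.14).

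The medians of markers of entering blood cells followed the same order of arrays, but not every marker did. Csf3r was at -0.11, -0.31, -0.36 and -0.21, Elane at -0.17, -0.30, -0.25 and -0.18, and Adgre1 at -0.49, -0.18, -0.45 and -0.45. Mpo and Mrc1 were lowest on array 4. S100a8, S100a9, Retnlg, Lyz2, Ccr2 and Ms4a7 were lower on arrays 1 and 2 than on arrays 3 and 4. Of 6 neutrophil markers tested 2 were lower, Csf3r at -0.25 and Elane at -0.22, and their medians were -0.39, -0.37, -0.18 and -0.07 on arrays 1 to 4. Of 6 monocyte and macrophage markers tested 1 was lower, Adgre1 at -0.39, with medians of -0.30, -0.27, -0.08 and 0.20. All 6 of each list were above the filter. Summed intensities ran from 45059 to 53781 in knockout-labelled against 57203 to 65988 in wild-type samples for neutrophil markers, and from 1936 to 2919 against 2427 to 3009 for macrophage markers. Csf3r made up 79.9 to 93.9% of the neutrophil sum, and without it the ranges overlapped, at 3308 to 10341 against 5841 to 9763. The neutrophil genes S100a8, at -1.28, -1.18, -0.30 and 0.04, and S100a9, at -0.99, -1.18, -0.12 and 0.14, did not pass (limma, adjusted p = 0.0597 and 0.110). Like Spp1 and Tgfbi, which macrophages make, the macrophage medians were negative on arrays 1 to 3 and positive on array 4, and the part of these markers in those genes was not tested. Markers of tissue outside the cortex also varied: 6 striatal markers, none past the threshold, had medians of -0.27, -0.42, 0.23 and -0.04, and 5 choroid plexus markers, of which 1 was lower, had medians of -0.42, -0.71, 0.00 and -0.23. Their summed intensities ran from 21490 to 27618 and from 1083 to 1561 in knockout-labelled samples, against 22737 to 27196 and 1108 to 2248 in wild type. Of 6 oligodendrocyte markers 1 was higher, and the 6 had medians of -0.13, -0.26, 0.27 and 0.44 on arrays 1 to 4.

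Other genes of the same pathways were taken from 13 lists of 210 genes, of which 193 were tested. In all, 29 were lower and 9 higher (19.7% past the threshold, against 21.3% of all features), with a median of -0.07. The TGF-beta pathway list had 7 lower (36.8%, against 12.7% of all features) and 1 higher of 19, with a median of -0.17. By the smallest p these were Smad2, a signal transducer, higher by 0.32 ± 0.11 (limma, adjusted p = 0.00965), Smad4, its common partner, at -0.21 ± 0.04 (adjusted p = 0.0158), and the receptor gene Tgfbr1 at -0.18 ± 0.05 (adjusted p = 0.0247). With median centring Smad2 no longer passed, at 0.07, and with the mean of all its probes Smad4 stood at -0.02.

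Receptors and their link to actin came next. Of 13 other integrin chains, 1 was higher, Itga2b of platelets at 0.15 ± 0.06, and 1 lower, Itgb5 at -0.21 ± 0.10. Of 5 leukocyte integrin chains, Itgb2 was lower at -0.41 ± 0.34 and Itgam at -0.24 ± 0.09, while Itgad was higher at 0.32 ± 0.09. Of 17 further matrix receptors, only the hyaluronan receptor gene Cd44 passed, lower at -0.34 ± 0.23 (limma, adjusted p = 0.0298). Of 18 focal adhesion and actin genes, 4 were lower (22.2%, against 12.7% of all features) and none higher. They were led by the alpha-actinin gene Actn1 at -0.35 ± 0.11 (limma, adjusted p = 0.00784), the adaptor gene Bcar1 at -0.18 ± 0.05 and the filamin gene Flna at -0.26 ± 0.16. Actn1 kept its call in all 14 alternatives run for these lists.

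Among structural genes, 3 of 28 other collagens were lower and none higher: Col2a1 at -0.48 ± 0.18 (limma, adjusted p = 0.00636), Col22a1 at -0.28 ± 0.17 and Col9a1 at -0.17 ± 0.05, the last of which turned to 0.03 with median centring. Of 15 other basement membrane genes, Frem1 was lower at -0.47 ± 0.09 (adjusted p = 0.00240) and Frem2 at -0.17 ± 0.07, while Dag1, the dystroglycan gene, was higher at 0.18 ± 0.06 but at -0.13 with median centring. Of 13 elastic fibre genes 1 was lower, Fbln1 at -0.28 ± 0.15. None of 5 other leucine-rich proteoglycan genes passed, in contrast to the calls of Lum and Dcn, and the difference between them was not tested. Of 13 other matricellular genes 2 were lower, led by Dmp1 at -0.50 ± 0.08 (adjusted p = 0.00196), and Thbs3 and Comp, relatives of Thbs1, were higher at 0.26 ± 0.12 and 0.22 ± 0.07. The direction of Thbs3 turned to -0.05 with median centring.

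Enzymes that shape the matrix went both ways. Of 22 collagen processing genes 2 were lower, Crtap, which aids prolyl hydroxylation, at -0.38 ± 0.14 (limma, adjusted p = 0.00859) and the cross-linking gene Loxl1 at -0.33 ± 0.16. Bmp1, the procollagen proteinase gene on chromosome 14, was higher at 0.23 ± 0.11, though the mean of its probes was -0.07 and median centring gave -0.15. Of 19 perineuronal net and hyaluronan genes, 3 were lower and 2 higher. Both Chst11 and Csgalnact1, which build chondroitin sulphate, were lower, at -0.32 ± 0.17 and -0.20 ± 0.05, and the hyaluronidase gene Hyal2 was higher at 0.25 ± 0.07, but at -0.05 with median centring. Of 6 ADAMTS proteases tested, Adamts9 was lower at -0.36 ± 0.29 (adjusted p = 0.0448). Dmp1, Frem1, Col2a1, Crtap and Actn1 were the 5 of the 29 genes named from these lists that passed in all 14 alternatives. The probes of Dmp1, Frem1 and Col2a1 were brighter than only 38.1, 38.6 and 35.4% of features, those of Crtap and Actn1 than 61.1 and 51.2%. In the tenth of features by brightness that holds the first 3, 14.3% were lower and 5.21% higher. Comp, Itga2b and Col9a1 were dimmer still, at 12.2, 21.5 and 24.0%.

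**Figure D4:**
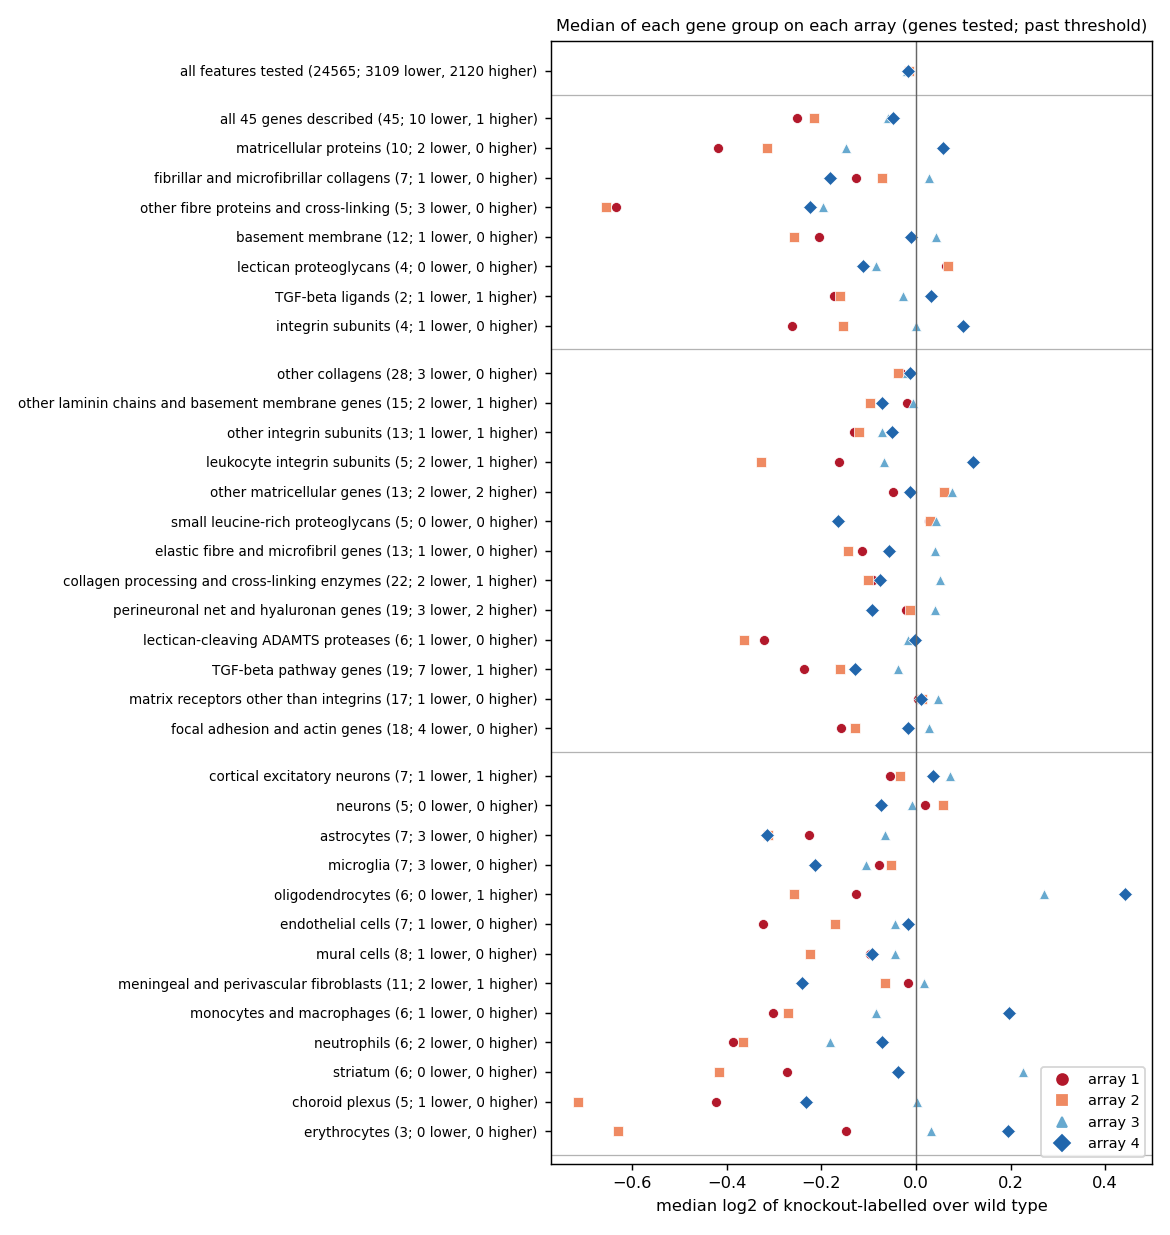
Median log2 of knockout-labelled over wild type on each array for all features, for the 45 genes and their roles, for the lists of other matrix genes and for cell type markers; brackets give genes tested and those past the threshold. The median of the 45 is -0.25 and -0.22 on arrays 1 and 2 and -0.06 and -0.05 on arrays 3 and 4. Not every group follows this order: the medians of the 4 lecticans and of the 7 collagen chains are lowest on array 4.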

How the data were processed

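Per the labels' protocols, 200 ng of total RNA per sample was labelled by linear amplification. The deposited intensities are those of Agilent Feature Extraction 11.0.1.1, per the file headers (version 10.7.3.1 in the submitters' processing notes). The log10 ratios are the same software's, per the file headers, and so are the flags, which take values of 0 or 1. A series matrix deposited with them gives log2 ratios of wild type over knockout, equal to the scanner files within 0.001 for 39030 single-spot probes, with column medians of -0.05, -0.06, -0.04 and -0.03, so its sign is opposite to the one used here.

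Median spot and background signals were corrected by normexp (offset 50) and normalized by loess within arrays in limma 3.58.1 (R 4.3.3), with control spots at weight 0 and 139 to 186 outlier spots per array dropped. Probes well above background on at least 3 of 4 arrays in either channel were kept (30259 of 39429), and 69.6% of probes had a symbol, through RefSeq names of GRCm38.p6. The 24565 features were fitted in limma (lmFit, eBayes), with the mean ratio tested against 0 and p-values adjusted by the Benjamini-Hochberg method. Channel intensities are those after Aquantile scaling, in arbitrary units. The array pairs samples of the same number. The number of arrays limits the precision. Spots covered 43020 positions per array. Genes and lists were chosen with earlier results of these data known. All 45 genes are described, those past the threshold, the 3 highest and 3 lowest and any with 1 array apart by array, and up to 3 genes with the smallest p from each further list. Other genes shown by array were picked after their values were seen.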

Additional observations from a re-analysis of the deposited data

Results flagged for a closer look

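Single arrays were compared with the other 3 by Dixon's ratio, which divides the distance of the extreme value to the next one by the full range, for 75 genes (the 45 described and 30 others named). It passed the 95% critical value for 2, where chance alone gives about 1 in 20 groups, or 3.75 here. Sparc had a ratio of 0.8292, from 0.05 on the third array, while the rest averaged -0.09. Actn1, the actinin gene, had a ratio of 0.863, from -0.52 on the second array, while the rest averaged -0.29.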

How the results depend on the processing

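Of 1187 values over 75 genes, 976 kept direction and side of the threshold or, where neither setting passed, turned by less than 1 SD. A further 168 lost a call, 27 gained one and 14 turned where at least 1 of the settings passed. The remaining 2 turned by 1 SD or more where neither setting passed. The number of the 45 genes that passed, 11 (10 lower, 1 higher), was 6 (5 lower) with plain background subtraction, 5 (4 lower, 1 higher) with the scanner software's ratios, the series matrix or no replicate block, 37 (36 lower) with median centring, and 3 to 14 (3 to 14 lower, 0 higher) with single replicates left out; with the mean of all probes none was higher. All features passing as lower and higher, 3109 and 2120, were 1720 and 1336 with subtraction, 13177 and 6329 with median centring, 1570 and 1268 with no replicate block, 1213 to 1918 and 808 to 1264 with a replicate left out, and 1741 or 1740 lower with the software's ratios or the series matrix. Of the further lists, 29 lower and 9 higher became 10 lower with subtraction, 19 with offset 16, 11 with the software's ratios, 118 and 34 with median centring, 13 and 4 with no replicate block, and 6 to 23 and 3 to 7 with a replicate left out. Median centring shifted all features to -0.18 and the 45 to -0.41, or -0.23 relative to all, and passed 79.4% of features. It turned Ccn2 (-0.28), Lama5 (-0.23), Bcan (-0.47), Itgav (-0.22), Tgfb2 (-0.095), Dag1 (-0.13), Thbs3 (-0.054), Bmp1 (-0.15) and Hyal2 (-0.053) negative and Col5a2 (0.27) and Col9a1 (0.025) positive. Sparcl1 turned to 0.0275 with the software's ratios and with the series matrix, and Bmp1 to -0.072 with the mean of its probes. The cause was not tested. Pairing by array was used throughout; without it (no replicate block) Thbs1, Lum, Dcn, Nid1, Tgfb1 and Aldh1a2 did not pass.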
